A study of Curvularia clavata with 15 samples.

Results

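Of the 10170 gene IDs in the files of the filamentous fungus Curvularia clavata, 232 had less RNA on lignosulfonate when CclaeA was deleted and stayed within 2-fold of the wild type when rpn-4 or tah-1 was deleted. These 232 members were chosen from the measured values, by a rule on group means. On the log2(scaled FPKM + 1) scale, a member was lower by at least 1 in the ΔCclaeA mutant than in the wild type (WT) on lignosulfonate. It differed from WT by less than 1 in each of Δrpn-4 and Δtah-1. A difference of 1 on that scale is called 2-fold throughout, although at low levels the fold in scaled FPKM itself is larger. Scaled FPKM is the deposited fragment density of a gene (fragments scaled to transcript length and to the mapped total of the library) divided by a median-of-ratios size factor of the library. The 186 IDs that were at 10 FPKM or more in all 3 WT libraries of a medium and under 1 FPKM in all 3 of the other were dropped beforehand. The files do not pair the IDs with gene names, so the members are described by ID and value, and no role is given to any of them.

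RNA was sequenced from mycelia of strain J1 after 4 days of shaking at 200 rpm and 30 °C, in 100 mL cultures of Vogel's minimal medium. The 15 libraries fell into 5 groups of 3: WT on 2% glucose, and WT, ΔCclaeA, Δrpn-4 and Δtah-1, each on 2% lignosulfonate with 0.25% glucose. Lignosulfonate is a sulfonated, water-soluble form of lignin, the aromatic polymer of wood. The study asked how WT responds to it and what each deletion alters in mycelia grown on it. The labels name the deleted gene of each mutant but do not say how it was deleted, whether a mutant is 1 clone, or whether separate cultures were used for the 3 libraries of each group. The p-values therefore cover no more than the spread between libraries, which may be technical.

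In filamentous fungi, LaeA is a nuclear protein with a methyltransferase-like domain that works with velvet proteins. It is best known as a global regulator of secondary metabolism, the production of compounds such as polyketides and peptides whose genes often sit next to one another in the genome, and it also affects development and secreted enzymes. Loss of LaeA is known, in Aspergillus, to lower the expression of many such gene clusters. The ID of CclaeA was not identified among these IDs, so the genotype was not checked against the values. No member was listed at 0 in all 3 ΔCclaeA libraries.

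Some properties of the libraries touch these results. The median deposited FPKM over all IDs was 17.5 ± 0.144 (SD, n = 3) in Δrpn-4, against 32.9 ± 1.78 in WT on lignosulfonate, and the size factors remove that offset. Replicate 2 of Δtah-1 stood apart from its group. Its median deposited FPKM was 30.5, against 21.4 and 23.1 in replicates 1 and 3, and its size factor 1.21, against 0.807 and 0.870. After scaling it was at least 2-fold above or below both other replicates at 5.60% of the members, against 4.31% of all 9265 tested IDs. The next highest share of members, 4.31%, was that of replicate 3 of WT on glucose. The number of reads is unknown from FPKM, so the counting error behind a value could not be given. The WT file headers name FPKM and the mutant headers name no unit, so a difference in processing between those kinds of file and a difference between WT and mutants cannot be told apart.

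The rule narrowed the IDs as follows. In ΔCclaeA, 694 IDs were lower than in WT on lignosulfonate by at least 1 on the log2 scale, and 646 of these were left after the dropped IDs. Of the 646, 414 were excluded because another deletion also moved them by that much. Δrpn-4 accounted for 76 lower and 142 higher IDs, and Δtah-1 for 158 lower and 167 higher, some of them in both mutants. Among the dropped IDs, 15 met every other part of the rule. All 232 members had at least 1 FPKM in at least 3 libraries, the filter for testing, and 230 of them reached it in the 3 WT libraries on lignosulfonate alone. Among all tested IDs, 7.47% were lower in ΔCclaeA by the same amount.

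Most members were lowered by little more than the rule required. The difference between ΔCclaeA and WT on the log2(scaled FPKM + 1) scale ranged from -4.54 up to the limit of the rule, with a median of -1.27, and for 164 of the 232 it was smaller in size than 1.5. Only 22 members were lower by at least 2 on that scale, which is called 4-fold here. Members at low levels can pass 4-fold in scaled FPKM and not be among them. For example, yc1106_05288 had a mean of 1.62 in WT on lignosulfonate and 0.0318 in ΔCclaeA. Near the threshold the list has no gap: 49 members lay within 0.1 of it, and 89 other IDs that met the rest of the rule lay within 0.1 on its other side. Just inside were yc1106_04111, with 30.7 ± 1.86 scaled FPKM in WT and 14.9 ± 0.605 in ΔCclaeA (SD, n = 3 each), and yc1106_01457, with 32.7 ± 2.68 and 15.8 ± 1.60. Just outside were yc1106_03214, with 114 ± 53.3 and 56.4 ± 8.31, and yc1106_05112, with 88.9 ± 3.78 and 44.0 ± 0.659.

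**Figure D1:**
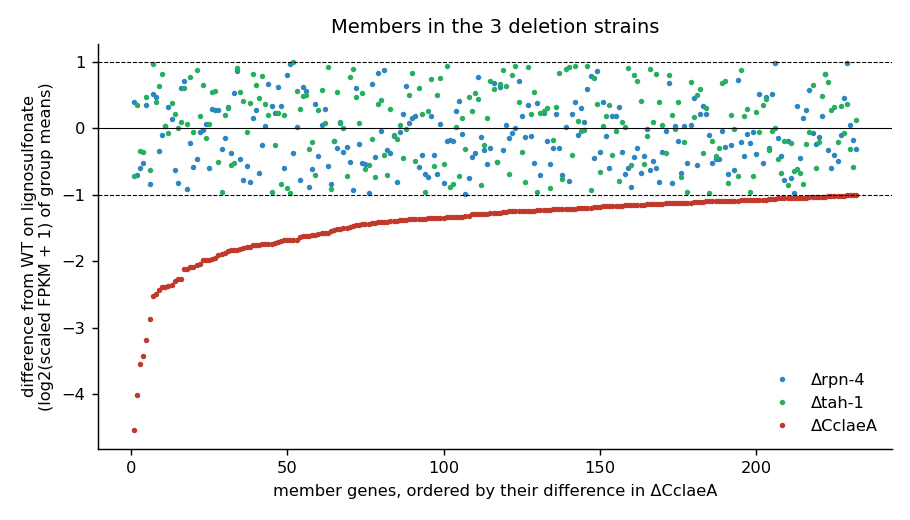
Difference of each of the 232 members from WT on lignosulfonate in the 3 deletion strains (y axis, log2(scaled FPKM + 1) of group means), with members ordered by their difference in ΔCclaeA (x axis). Dashed lines mark differences of 1 in either direction, the limits of the rule. The ΔCclaeA points start at -4.54 and most lie close to the limit, and the Δrpn-4 and Δtah-1 points fill the range between the dashed lines, which the rule set.

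The separation from the other deletions was often narrow. Across the members the median difference from WT was -0.16 for Δrpn-4 and 0.14 for Δtah-1, with 141 members below WT in Δrpn-4 and 97 below it in Δtah-1, and 71 members stayed within 0.5 of WT in both. Measured directly between mutants, ΔCclaeA was lower by at least 1 on the log2 scale than Δrpn-4 at 145 members (14.6% of all tested IDs) and than Δtah-1 at 166 members (18.6% of all tested IDs). It was lower than both by that much at 111 members, or 47.8% of them, against 7.29% of all tested IDs. The remaining 121 members were lower in ΔCclaeA than in at least 1 of the other mutants by less than 2-fold, so for these the rule's limits separate differences that lie close together. The rule used these same libraries, so these counts describe the list and were not tested. The position of Δrpn-4 also depended on the scaling: with FPKM as deposited the median member difference in Δrpn-4 was -0.97, beside -0.79 for all tested IDs.

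Within the libraries, the lower values of ΔCclaeA were regular. In 230 of the 232 members all 3 ΔCclaeA values lay below all 3 WT values on lignosulfonate, a pattern found in 30.5% of all tested IDs. In 220 members all 3 also lay below all 3 Δrpn-4 values (38.2% of all tested IDs), and in 209 below all 3 Δtah-1 values (38% of all tested IDs). In 205 members the ΔCclaeA values were the lowest of the 12 lignosulfonate libraries, against 15.1% of all tested IDs. Since the rule chose these differences, the counts say how the libraries behind each mean lay and support nothing further. The 2 exceptions were yc1106_05280 and yc1106_07115, named here after their values were seen. The WT libraries on lignosulfonate had 10.2, 0 and 10.4 scaled FPKM for yc1106_05280, and the ΔCclaeA libraries 0, 7.24 and 0, so its means rest on libraries that disagree. The same libraries had 3.49, 10.4 and 1.68 against 0, 2.01 and 3.85 scaled FPKM for yc1106_07115.

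The spread between replicates of the members differed by group. The median SD over members on the log2(scaled FPKM + 1) scale was smallest in ΔCclaeA, at 0.12, and in Δrpn-4, at 0.13. It was 0.19 for WT lignosulfonate libraries, 0.25 for WT glucose libraries and 0.30 for Δtah-1. In Δtah-1, replicate 2 was at least 2-fold above both other replicates at 7 members and at least 2-fold below both at 6. Without that library the rule found 242 IDs, 218 of them among the 232. Of the 14 members lost, 12 were then lower in Δtah-1 by 1 or more and 2 were higher.

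**Figure D2:**
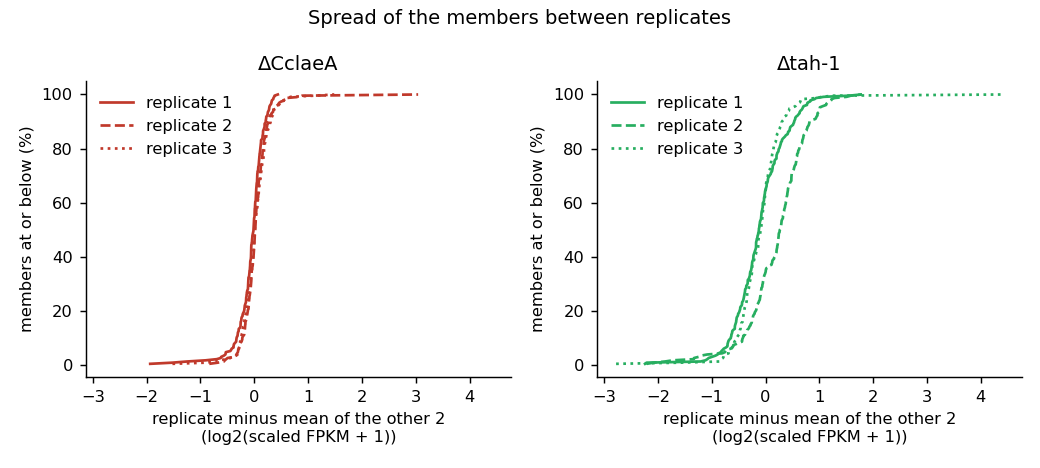
Cumulative share of the 232 members (y axis, percent) against the value of a replicate minus the mean of the other 2 replicates of its group (x axis, log2(scaled FPKM + 1)), for ΔCclaeA on the left and Δtah-1 on the right. The 3 ΔCclaeA curves lie close together, and replicate 2 of Δtah-1 is shifted to the right of replicates 1 and 3.

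The members spanned a wide range of abundance. On lignosulfonate in WT their group means ran from 1.33 to 5663 scaled FPKM with a median of 34.1, close to the 30.7 of all tested IDs. At 61 members the WT mean was at least 100, and at 53 it was under 10. In ΔCclaeA the median member level was 12.5 scaled FPKM, 18 members had a mean under 1, and 125 kept a mean of at least 10. The median difference in ΔCclaeA was -1.22 for members under 10 scaled FPKM in WT, -1.31 from 10 to 100, and -1.34 above that. The limit of the rule bunches these medians, so no trend or lack of one is read from them. Together the members held 4.60% ± 0.217 of the deposited FPKM sum in WT on glucose, 4.11% ± 0.0814 in WT on lignosulfonate and 1.45% ± 0.0325 in ΔCclaeA (SD, n = 3 each). The share was 1.93% ± 0.0714 in the Δrpn-4 libraries and 3.87% ± 0.538 in those of Δtah-1. This share was low in Δrpn-4 although the scaled levels of the members stayed within 2-fold of WT there, and the size factors of that mutant, 0.683 to 0.696, were the lowest of the 15. The share weights the most abundant members. In WT, yc1106_05966 had a mean of 14812.5 scaled FPKM on glucose and 925.7 on lignosulfonate. The median member level in WT went the other way, at 14.0 on glucose and 34.1 on lignosulfonate. In a culture of mycelium, less RNA per cell and fewer cells of an expressing kind cannot be told apart.

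The largest difference was that of yc1106_00870. Its WT libraries on lignosulfonate, in the order of the replicate numbers as in all such lists, had 1194, 1163 and 1318 scaled FPKM, and its ΔCclaeA libraries 52.6, 57.9 and 44.3. The Δrpn-4 libraries lay higher, at 1698, 1529 and 1605, and the WT libraries on glucose lay at 13.4, 11.9 and 16.8. ΔCclaeA was thus well below every other lignosulfonate library and above every glucose library, with a difference of -4.54 from WT on lignosulfonate. The Δtah-1 libraries disagreed, at 390.3, 1412 and 429 scaled FPKM, and the middle value is that of replicate 2. Without that library the difference of Δtah-1 from WT was -1.59 in place of -0.72, and yc1106_00870 no longer met the rule.

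The second largest difference, -4.01, was that of yc1106_00458. Its WT libraries on lignosulfonate had 255, 263 and 307 scaled FPKM, and the ΔCclaeA libraries 16.1, 16.1 and 16. On glucose WT had 75.4, 84.1 and 98.2, so here the mutant lay below both WT media. The Δrpn-4 libraries had 160.5, 174 and 170.4 scaled FPKM, and those of Δtah-1 459, 127 and 469.6, again with replicate 2 apart. Without replicate 2 the difference of Δtah-1 from WT was 0.75 in place of 0.35, and the gene still met the rule.

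The 22 members that were lower by at least 4-fold in ΔCclaeA lie more than 2-fold below each of the other mutants by the arithmetic of the rule. Their WT means on lignosulfonate ran from 8.27 to 1225 scaled FPKM with a median of 141. Without replicate 2 of Δtah-1, 20 of the 22 still met the rule, and 18 met it whichever of the 15 libraries was left out.

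The 2 most abundant members in WT on lignosulfonate were yc1106_05420 and yc1106_07441. yc1106_05420 had 5798, 4897 and 6295 scaled FPKM in WT on lignosulfonate and 1847, 1688 and 2144 in ΔCclaeA, a difference of -1.58. Its ΔCclaeA values overlapped those of WT on glucose, which were 1726, 2555 and 1859. The Δrpn-4 libraries had 6616, 5361 and 5713, and those of Δtah-1 6022, 10959 and 8359.7, so neither mutant lay below WT on lignosulfonate. yc1106_07441 had 2657, 2354 and 3270.4 in WT on lignosulfonate, 946, 952 and 931 in ΔCclaeA, and 134, 124 and 146 in WT on glucose. This gene also lay below WT in the other mutants, with 1550.5 ± 77.7 for Δrpn-4 and 1471 ± 88.2 for Δtah-1 (SD, n = 3 each), differences of -0.83 and -0.91 that fell short of the limit.

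**Figure D3:**
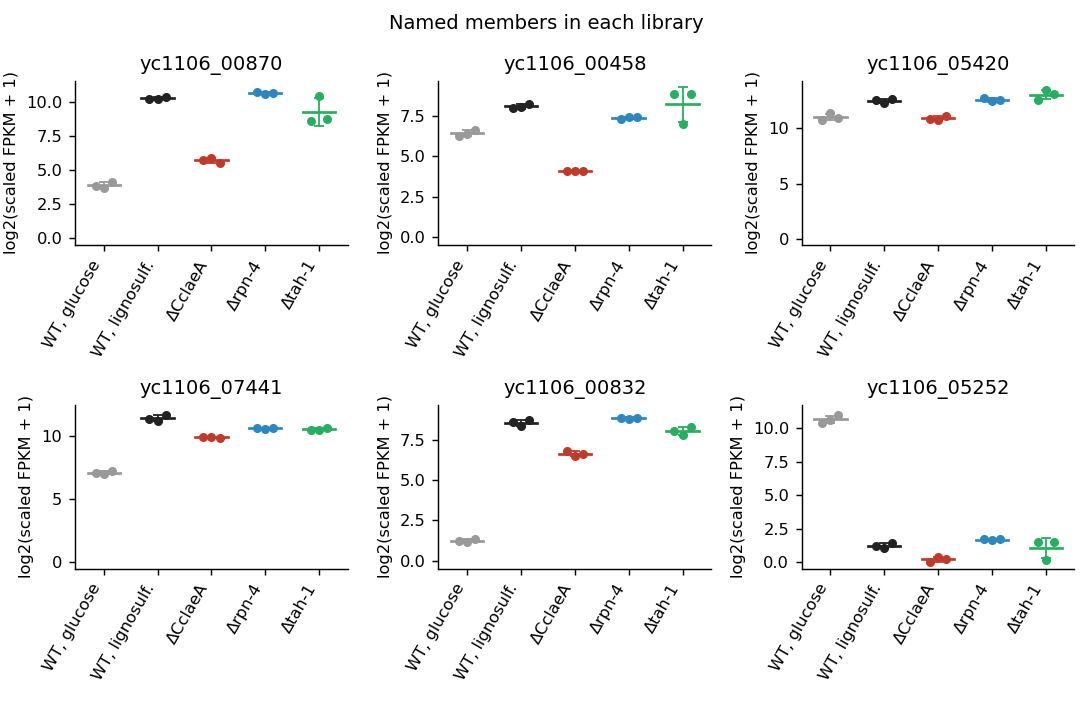
Level of 6 named members in every library (points, y axis log2(scaled FPKM + 1)), with group means (lines) and SD (error bars, n = 3) for the 5 groups on the x axis. In yc1106_00870 and yc1106_00458 replicate 2 of Δtah-1 lies apart from the other 2 replicates, and in all 6 panels the ΔCclaeA mean is below that of WT on lignosulfonate.

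Many members respond to the medium in WT. Between WT on lignosulfonate and WT on glucose, 123 of the 232 members were higher on lignosulfonate at a limma adjusted p under 0.05 and at least 2-fold, or 53.0% of the members against 22.7% of all tested IDs. A further 32 members, 13.8%, were lower on lignosulfonate, against 18.1% of all tested IDs. The median medium difference was 1.20 for the members and 0.00 for all tested IDs on the log2(scaled FPKM + 1) scale. The rule put no limit on this contrast beyond the dropped IDs, but it favours a high WT mean on lignosulfonate, and the same 3 libraries enter both contrasts. The dropped IDs are counted among all tested IDs here, though they could not be members. The levels in the other mutants do not contain those libraries, but the rule held both mutants near WT on lignosulfonate. Relative to WT on glucose, 115 members were at least 2-fold higher in Δrpn-4 (25.4% of all tested IDs) and 125 in Δtah-1 (27.2% of all tested IDs). The rule set most of this, and all tested IDs are under no such limit, so these counts are no separate check. The media differ in lignosulfonate and in glucose, and this contrast holds both together. The 412 tested IDs that were lowered in ΔCclaeA but excluded for another deletion were higher on lignosulfonate in 56.8% of cases and lower in 12.6%. The difference between these lists was not tested.

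At the 123 members that rose on lignosulfonate, the typical ΔCclaeA level lay between the WT levels on the media. Their median WT level was 4.68 scaled FPKM on glucose and 42.3 on lignosulfonate. The ΔCclaeA median was 13.8, against 34.1 for Δrpn-4 and 35.7 for Δtah-1. In ΔCclaeA 67 of the 123 lay within 2-fold of their WT glucose level (59.4% of all tested IDs), 54 were still at least 2-fold above it (20.9% of all tested IDs), and 2 were at least 2-fold below it (19.7% of all tested IDs). Of the same members, 111 lay at least 2-fold above the glucose level in Δrpn-4 (25.4% of all tested IDs) and 114 in Δtah-1 (27.2% of all tested IDs). The call between the WT media and the rule, which lowers ΔCclaeA and holds the other mutants near WT on lignosulfonate, set most of these counts, so nothing is read from the contrast between the mutants.

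The other members were not of this kind. For the 77 members not called between the media, the median level was 26.8 scaled FPKM on glucose and 28.4 on lignosulfonate in WT, and 8.28 in ΔCclaeA. In 71 of the 77 all 3 ΔCclaeA values lay below all 3 glucose values (36.3% of all tested IDs), which mostly follows from choosing IDs with no called medium difference that the rule put below WT on lignosulfonate. The 32 members that fell on lignosulfonate had a median level of 322 scaled FPKM on glucose and 38.2 on lignosulfonate in WT, and 16.5 in ΔCclaeA. The median difference between ΔCclaeA and WT on lignosulfonate was -1.33 for members that rose, -1.21 for members that fell and -1.27 for the rest, values that the limit of the rule holds close together.

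**Figure D4:**
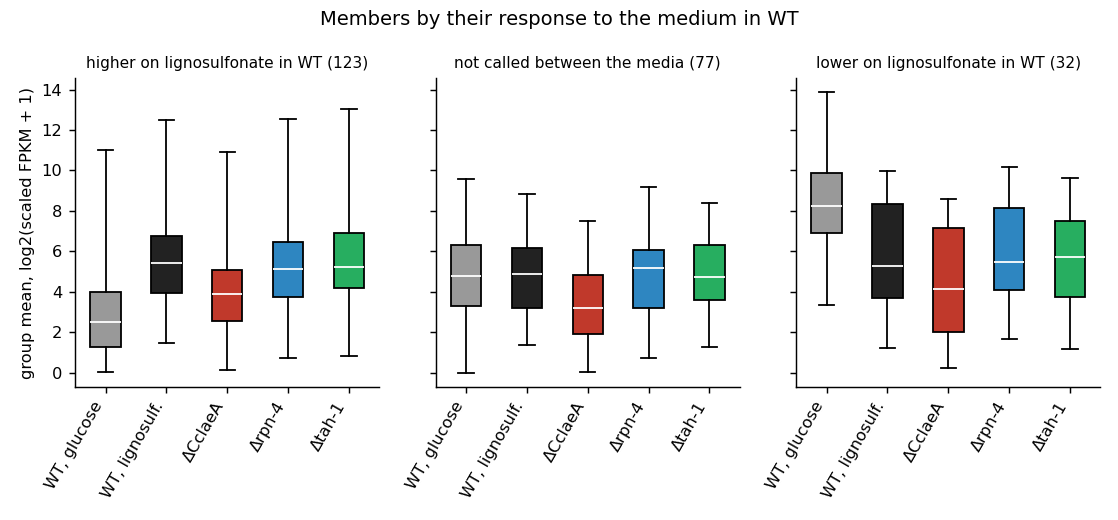
Group means of the members (y axis, log2(scaled FPKM + 1)) in the 5 groups, split by the limma call between the WT media: 123 higher on lignosulfonate, 77 not called and 32 lower. Boxes span the quartiles, white lines are medians and whiskers reach the lowest and highest member. ΔCclaeA has the lowest median of the 4 lignosulfonate groups in each panel, which the rule set, and on the left it lies between WT on glucose and WT on lignosulfonate.

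The strongest responses to the medium among the members were large. At 15 members, 6.47% of them, the rise on lignosulfonate was called and at least 16-fold, as it was at 3.12% of all tested IDs. These shares are not like for like. All tested IDs include the dropped IDs, which could not be members, and the rule favours a high WT mean on lignosulfonate in the same libraries. The difference between the shares was not tested, and the p-values below belong to IDs picked as the largest rises or named above. yc1106_00832 rose from 1.35, 1.20 and 1.55 scaled FPKM on glucose to 382, 322 and 415 on lignosulfonate, a log2 difference of 7.30 (SE 0.13, limma adjusted p = 2.91e-15). In ΔCclaeA it had 108, 90.6 and 98.6, below all WT libraries on lignosulfonate and far above those on glucose. Its values in Δrpn-4, 453 ± 18.0, and Δtah-1, 262 ± 46.1 (SD, n = 3 each), lay to either side of WT. yc1106_03369 rose from 1.80 ± 0.213 to 252 ± 7.18 scaled FPKM (log2 difference 6.50, SE 0.10, limma adjusted p = 4.3e-16) and had 113 ± 11.5 in ΔCclaeA. Its Δrpn-4 mean was 159 ± 2.87 and its Δtah-1 mean 335 ± 16.2. The leading member of the list, yc1106_00870, rose by 6.36 (SE 0.34, limma adjusted p = 4.29e-10), and the most abundant, yc1106_05420, by 1.48 (SE 0.22, limma adjusted p = 2.62e-05).

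The 2 members with the largest falls on lignosulfonate had low levels there in every strain. yc1106_05252 fell from 1357, 1572 and 2002 scaled FPKM on glucose to 1.33, 1.05 and 1.61 on lignosulfonate in WT (log2 difference -9.45, SE 0.28, limma adjusted p = 4.06e-13). The ΔCclaeA libraries listed it at 0, 0.284 and 0.187 scaled FPKM. Its place in the list thus rests on a difference of about 1 scaled FPKM. The Δtah-1 libraries had 1.80, 0.107 and 1.78 scaled FPKM, so replicate 2 lay among the ΔCclaeA values. Without that library yc1106_05252 still met the rule. yc1106_04235 fell from 507 ± 37.9 to 2.70 ± 0.484 scaled FPKM (log2 difference -7.11, SE 0.18, limma adjusted p = 7.37e-14) and had 0.603 ± 0.118 in ΔCclaeA.

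Most members had no neighbouring member in the ID numbering. Of the 232, 206 had no other member at the next number on either side. The remaining 26 formed 11 runs of consecutive IDs, of which 9 were pairs. The number of runs that 232 of the 10170 IDs would form without grouping was not worked out, so grouping was not tested. The labels and files do not say whether the numbering follows the genome. Of the 384 tested IDs next to a member that were not members themselves, 34 were lower in ΔCclaeA by at least 1, or 8.85%. The share over all tested IDs was 7.47%, but it includes the members, which these neighbours leave out. Without the members it would be lower, so the shares are not like for like, and the difference was not tested.

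The longest run held 5 members, yc1106_04108 to yc1106_04112. Their WT means on lignosulfonate were low, at 12.3 ± 1.42, 2.76 ± 0.405, 11.2 ± 1.82, 30.7 ± 1.86 and 13.8 ± 0.990 scaled FPKM, in ID order. In ΔCclaeA they were 2.13 ± 0.420, 0.704 ± 0.189, 2.5 ± 0.283, 14.9 ± 0.605 and 3.78 ± 0.760 (SD, n = 3 each). The differences were -2.08, -1.14, -1.80 and -1.63, with yc1106_04111 just past the limit, and at each of the 5 IDs no ΔCclaeA value reached a WT value on lignosulfonate. The first 4 rose on lignosulfonate in WT, by 1.71, 1.26, 2.51 and 3.01 on the log2 scale (SE 0.18, 0.24, 0.18 and 0.16; limma adjusted p = 6.5e-07, 0.000311, 1.08e-08 and 3.6e-10), and yc1106_04112 differed by 0.60 (SE 0.21, limma adjusted p = 0.0188), short of 2-fold.

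The IDs on either side of this run differed less in ΔCclaeA or were higher there. yc1106_04106 came nearest to the run: its ΔCclaeA libraries had 212, 173 and 216 scaled FPKM, below all WT libraries on lignosulfonate at 292, 282 and 389, a difference of -0.68 that falls short of the limit. It rose on lignosulfonate in WT by 7.38 (SE 0.16, limma adjusted p = 1.34e-14), and differed from WT by -0.55 in Δrpn-4 and 0.48 in Δtah-1. yc1106_04107 had 41.9 ± 11.1 scaled FPKM in WT on lignosulfonate and 38.1 ± 3.95 in ΔCclaeA, with 222 ± 9.51 in Δrpn-4. yc1106_04113 had 8.36 ± 0.670 and 6.64 ± 0.688, and yc1106_04114 had 88.1 ± 4.12 and 194 ± 7.54 (SD, n = 3 each). The differences of the 3 IDs before the run and the 3 after it ranged from -0.68 to 2.43 in ΔCclaeA.

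**Figure D5:**
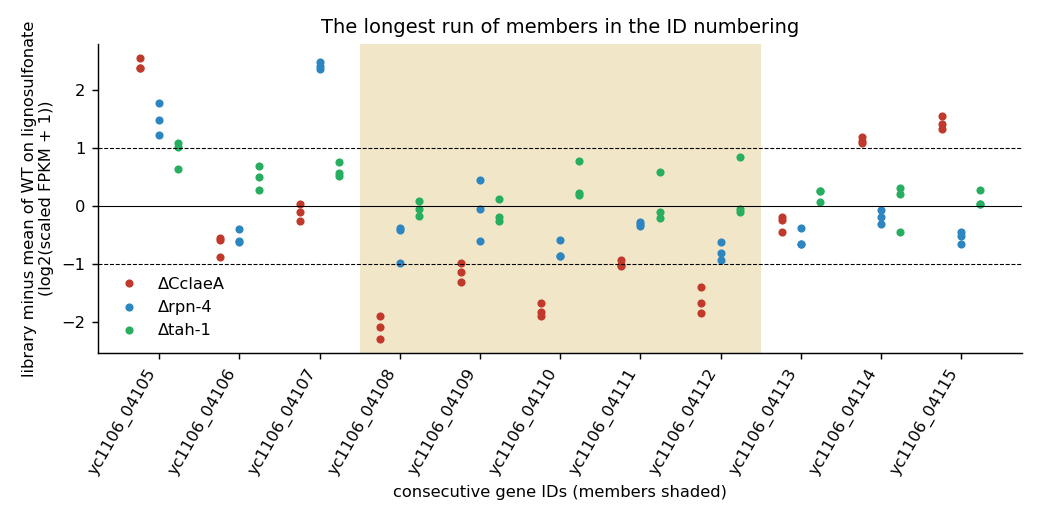
Each library of the 3 deletion strains (points) minus the mean of WT on lignosulfonate (y axis, log2(scaled FPKM + 1)) for 11 consecutive gene IDs (x axis), with the 5 members shaded. The ΔCclaeA points lie around or below -1 within the shaded run and above -1 on both sides.

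The next run, yc1106_00985 to yc1106_00987, showed how the Δtah-1 libraries split. yc1106_00985 had 187, 170.4 and 247 scaled FPKM in WT on lignosulfonate, 39.3, 43.1 and 40.6 in ΔCclaeA and 243, 79.2 and 287 in Δtah-1. The Δtah-1 libraries of yc1106_00986 were at 382, 98.8 and 466, and those of yc1106_00987 at 113, 42.3 and 102. Replicate 2 was the lowest of the 3 at each of these IDs, whereas it was the highest at yc1106_00870. All 3 IDs of the run still met the rule without it, with differences of 0.39, 0.57 and 0.70 between Δtah-1 and WT. In the remaining run named here, yc1106_00869 stood next to yc1106_00870, with 21.1 ± 6.50 scaled FPKM in WT on lignosulfonate, 3.51 ± 0.145 in ΔCclaeA and 1.31 ± 0.554 in WT on glucose (SD, n = 3 each). The medium difference of yc1106_00869 was 3.24 (SE 0.23, limma adjusted p = 8.99e-09).

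The 3 IDs whose pattern over the 15 libraries was most like that of yc1106_00870, by Pearson correlation of log2(scaled FPKM + 1), were yc1106_09969 (r = 0.986), yc1106_09096 (r = 0.982) and yc1106_06145 (r = 0.979). These 3 are members, but the next ID, yc1106_08959, is not and has the same r at these digits, and 4 of the 10 most like IDs are not members. The libraries share groups and were used by the rule, so r is a description. yc1106_09969 followed it also in Δtah-1, where replicate 2 had 90.1 scaled FPKM and the other replicates 46.8 and 44.6. yc1106_09096 had 230 ± 31.6 scaled FPKM in WT on lignosulfonate, 47.1 ± 2.24 in ΔCclaeA, 351 ± 14.9 in Δrpn-4 and 29.5 ± 1.51 in WT on glucose (SD, n = 3 each). yc1106_06145 had 27.7 ± 1.59, 7.68 ± 0.840, 32.7 ± 2.28 and 5.04 ± 1.37 in the same groups.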

How the data were processed

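Each deposited file held 1 FPKM value per gene ID for 1 library, scaled by the authors to transcript length and mapped total, per the file headers of the 6 WT libraries. The headers of the 9 mutant libraries name no unit, and their values were taken as FPKM from the file names and values. Per the submitters' processing notes, RSEM 1.3.3, HISAT2 2.1.0, DESeq2 and fastp 0.19.5 were used, in unstated roles. No genome build is named there. No counts were used and no count model was run.

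Each library was divided by a size factor, the median ratio to the geometric mean over the 8858 IDs above 0 in all 15 libraries, because the median FPKM differed between groups and was lowest in Δrpn-4. Group means were then taken, with a pseudocount of 1 on the log2 scale, which understates differences of low genes. The WT media were compared with limma 3.58.1 in R 4.3.3, with the trend and robust options and all 15 libraries. Benjamini-Hochberg adjustment was over the 9265 IDs that reached 1 FPKM in 3 or more libraries. The fit was also run on simulated data with independent noise and no outlying library, and no support is drawn from that. A call needed an adjusted p under 0.05 and a 2-fold difference. Other steps used Python 3.11.15. The members and lists were chosen with earlier results of these data known. Named IDs were those with the largest differences, highest levels, nearest the threshold, in the 3 longest runs, or most like the leading member. The 3 neighbours on either side of the longest run were also named. Others were chosen after their values were seen. Gene lists by product name could not be used without annotation. At most 1.50% of tested values were identical between replicates.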

Additional observations from a re-analysis of the deposited data

How the results depend on the processing

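Which IDs are members depended on the scaling and the limits. The rule found 213 IDs with FPKM as deposited, 106 of them among the 232, and 142 with FPKM rescaled to equal sums (TPM), 91 of them among the 232. Of the 126 and 141 members lost, 111 and 136 were then lower in Δrpn-4 by 2-fold or more, as the median of all tested IDs in that mutant moved from -0.01 to -0.79 and -0.94. In 230 members all 3 ΔCclaeA values lay below all 3 WT values under each of the 3 scalings. A pseudocount of 0.1 gave 312 IDs, 215 of them among the 232. A limit of 1.5 on the difference in ΔCclaeA left 68, and a limit of 0.5 on the other deletions left 71. Leaving out each library gave 226 to 249 IDs, and 144 members were kept every time.

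In the medium contrast, the members higher on lignosulfonate numbered 121 to 140 over all alternatives, and those lower 24 to 37 except without a minimum fold change, which gave 50. Over all tested IDs that setting gave 3441 higher and 3409 lower, in place of 2102 and 1674. With TPM 1089 were lower, and the share of higher calls was 71.8%, against 55.7% with size factors and 64.0% as deposited. The median medium difference of the members was 1.39 as deposited, 1.53 with TPM, 1.37 with a pseudocount of 0.1, 1.27 with only the 6 WT libraries and 1.13 to 1.23 when a library was left out, while that of all tested IDs moved from 0.00 to 0.17 and 0.35 with the first 2. No medium difference called at a member named by the choices above lost its call. Those of named IDs that are not members, such as yc1106_04106, were not checked in this way. Whether the replicate numbers pair the WT libraries is unclear. Deviations from the group mean correlated between the media at 0.450 for replicates 2 and 0.512 for replicates 3. The cross pairs of replicates 2 and 3 gave -0.405 and -0.536. For replicates 1 the correlation was 0.0026, and WT on glucose replicate 1 did not correlate best with its own number. With the replicate number as a block, 123 members were higher, 32 lower, and 2102 and 1672 of all tested IDs. Depth is unknown from FPKM, so differences at members with a few scaled FPKM have no counting interval.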
